A study of Mus musculus with 16 samples.

Results

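The 10 genes described here, Acta2, Actg2, Tpm2, Cnn1, Lmod1, Tagln, Myh11, Myl9, Mylk and Des, encode parts of the contractile machinery of smooth muscle. They were chosen by name: a probe counted as a member where its gene name on the array was one of these 10 symbols. This found 10 of 10 genes, through 12 of the 55681 probes, among 25574 genes measured in mouse lung. Lung RNA from female mice was hybridised to 16 single-colour Agilent arrays, 1 per sample. The youngest group, 4 samples of ARF-DTR mice aged 2 months, was left without injection, so that age and injection go together in any comparison with it. At 12 months, ARF-DTR mice gave 4 samples after PBS and 4 after diphtheria toxin (DT). Wild type mice aged 12 months gave 2 samples with PBS and 2 with DT, which show the effect of the toxin without the transgene. ARF-DTR mice carry a receptor for DT under the promoter of Arf, a gene active in senescent cells, so the toxin acts on whichever cells use that promoter and not on smooth muscle by design. The DT dose was 50 microgram per kg into the peritoneum, at an interval of 2 weeks over 1 month.

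Smooth muscle shortens when myosin filaments pull on actin filaments that are anchored in dense bodies and in the membrane. Calcium and calmodulin switch on a kinase that phosphorylates the light chain of myosin, and actin-bound proteins such as calponin and tropomyosin tune the force. In the lung such cells ring the airways and the vessels, and transcription of their contractile genes is driven by serum response factor with the coactivator myocardin, bound at CArG boxes.

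Values are log2 signals minus the 75th percentile of the array, so a level of 0 equals that percentile and a difference of 1 is a doubling. Levels of different genes come from different probes and are not compared with each other. In bulk RNA, fewer smooth muscle cells and less RNA per cell cannot be told apart. The arrays filled 2 slides: ARF-DTR arrays without toxin, at 2 months and at 12 months with PBS, were on slide 1, and ARF-DTR arrays with DT shared slide 2 with every wild type array. The 75th percentile was 980 ± 74.4 intensity units on slide 1 and 665 ± 44.4 on slide 2 (SD, n = 8 arrays each). The median absolute log2 difference over genes was 0.15 for arrays within a group, 0.18 for arrays of unlike groups on a shared slide and 0.27 for arrays on different slides. Age and the DT effect in wild type mice were therefore measured within a slide. For DT against PBS in ARF-DTR mice, slide and treatment cannot be told apart. The comparison of the ARF-DTR DT arrays with wild type PBS, within slide 2, is given beside it, and there genotype changes along with DT. Slide row also went with group. The 2-month arrays were on row 1 and the ARF-DTR PBS arrays on row 2 of slide 1. ARF-DTR DT arrays were on row 1 and wild type arrays on row 2 of slide 2. Only DT in wild type mice was thus compared within a slide and row. All 8 alveolar epithelium markers were well above background on all 16 arrays. Of the members, 9 were well above background on all 16 arrays and Lmod1 on 15.

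Promoters of 7 members were present in the RefSeq promoter table (GRCm38.p6, 250 bases before to 50 after the start site): Acta2, Cnn1, Des, Myl9, Tpm2, Lmod1 and Mylk. They were searched for the CArG box, on either strand. The strict box, with only A and T in its core, was found in 1 of the 7 (Myl9) and in 1.629% of all 32851 promoters. Allowing at most 1 C or G in the core, which includes the strict box, added Acta2, giving 2 of 7 against 9.984% of all promoters. The matches of these members are printed with 10 bases on each side, since the CArG box is the known motif of serum response factor. The capitals mark the box.
Acta2 distal: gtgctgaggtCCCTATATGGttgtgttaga
Acta2 proximal: cgtctttgctCCTTGTTTGGgaagcgagtg
Myl9 distal: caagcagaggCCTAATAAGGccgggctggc
Myl9 proximal: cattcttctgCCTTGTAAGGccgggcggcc
The Acta2 stretches lie on the minus strand at chr19:34255438-34255467 and chr19:34255388-34255417, where the boxes begin 84 and 34 bases before the start site. Those of Myl9 lie on the plus strand at chr2:156775293-156775322, which is the strict box, and chr2:156775355-156775384, and begin 161 and 99 bases before it. A match describes letters only, and its absence from the windows of the other 5 says nothing of the factor.

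Across the members, the 2-month arrays had the highest group mean for 10 of 10 genes, and a DT group the lowest: ARF-DTR with DT for 7 and wild type with DT for 3. The PBS groups lay between, ARF-DTR above wild type for 7 members and below it for 3; over the alternatives tried 5 (median scaling) to 9 had ARF-DTR at or above wild type. Except at the drop to the upper of the DT groups, neighbouring groups in this order overlapped for most members. Counting down from the highest group, the arrays at its step to the next were apart for 1 member, at the step after that for 2, then for 7, and at the last step for 2. Most members were apart at the drop to the upper of the DT groups, but these counts cannot rank the steps. The groups that meet at a step differ between genes and in their number of arrays. Of all genes, 7.97% were apart as lower with age in ARF-DTR mice and 24.7% with DT in the smaller wild type groups. The share of all genes apart at each step is not given.

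**Figure D1:**
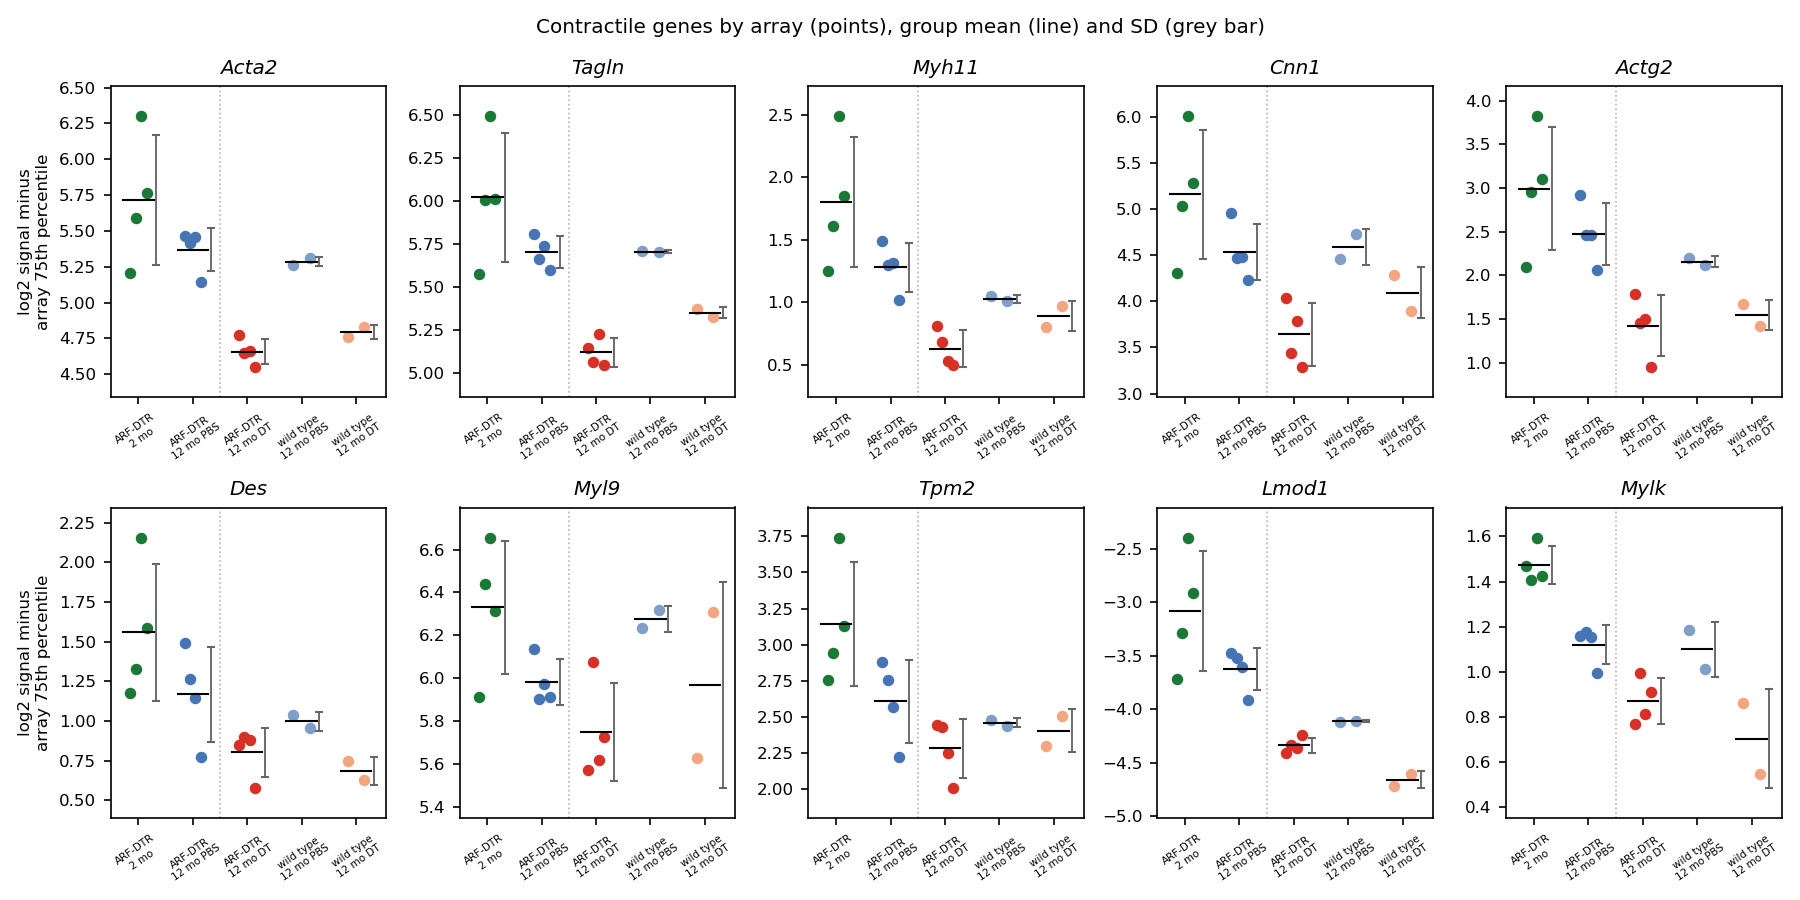
Level of each contractile gene on each array (log2 signal minus the 75th percentile of the array, vertical axis, scaled per gene) in the 5 groups; points are arrays, lines group means, grey bars SD, and the dotted line separates slide 1 (left) from slide 2. The 2-month group is highest for 10 of 10 genes, with a wide spread for most of them, and the DT groups are lowest.

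Acta2 encodes alpha smooth muscle actin, the main actin of the thin filament in vessels and airways, and its probe lies at chr19:34316060-34316119 (mm9, minus strand). At 2 months its level was 5.21, 5.59, 6.30 and 5.76 in replicates 1 to 4. At 12 months with PBS it was 5.46, 5.41, 5.45 and 5.14. With DT it was 4.77, 4.65, 4.66 and 4.55. The DT arrays all lay below every PBS array, while 2-month replicate 1 fell inside the PBS range. In wild type mice Acta2 read 5.26 and 5.31 with PBS and 4.76 and 4.83 with DT, again without overlap. Acta2 fell by 0.71 on the log2 scale with DT in ARF-DTR mice (SE 0.17, adjusted p = 0.00842), which is 1.64-fold. The age difference was −0.35 (SE 0.17, adjusted p = 0.282).

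Actg2 encodes gamma smooth muscle actin, the actin of visceral muscle, and its probe lies at chr6:83462904-83462963 (mm9, minus strand). Its 2-month levels were 2.10, 2.95, 3.82 and 3.10. With PBS at 12 months they were 2.92, 2.47, 2.46 and 2.06. With DT they were 1.79, 1.46, 1.5 and 0.95, all below the PBS arrays. The 2-month arrays spread across 1.73 log2 units, so that replicate 1 sat at the bottom of the PBS range and replicate 3 far above it. Wild type arrays gave 2.20 and 2.12 with PBS and 1.67 and 1.42 with DT. Of the members Actg2 had the largest fitted change with DT in ARF-DTR mice, a fall of 2.07-fold (log2 change −1.05, SE 0.30, adjusted p = 0.0188). With age the difference was −0.52 (SE 0.30, adjusted p = 0.367). Actin paralogs are close in sequence, and whether these probes also read other actins was not tested.

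Tpm2 encodes beta tropomyosin, which winds along the actin filament. It was read by 2 probes, whose sequences are shown because their DT values in ARF-DTR mice, which cross slides, were unlike each other.
Tpm2 used probe: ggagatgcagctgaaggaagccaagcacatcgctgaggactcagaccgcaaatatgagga
Tpm2 second probe: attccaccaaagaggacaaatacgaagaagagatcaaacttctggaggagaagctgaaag
They lie at chr4:43532262-43532321 and chr4:43531276-43531335 (mm9, minus strand), and the brighter one stands for the gene. Its levels were 2.76, 2.95, 3.74 and 3.13 at 2 months. At 12 months they were 2.88, 2.76, 2.57 and 2.23 with PBS and 2.45, 2.43, 2.25 and 2.01 with DT, so these groups overlapped. Wild type levels were 2.48 and 2.44 with PBS and 2.30 and 2.51 with DT. On the used probe the DT difference in ARF-DTR mice was −0.32 (SE 0.19, adjusted p = 0.223). The second probe read 2.78, 2.85, 2.53 and 2.28 with PBS and 2.15, 2.19, 1.99 and 1.75 with DT, which do not overlap, and its difference was −0.59 (SE 0.19, unadjusted p = 0.00765). Within slide 2, DT-treated ARF-DTR minus wild type PBS was −0.13 on the second probe and −0.18 on the used one. Both probes had nearly the same age difference, −0.53 on the used one (adjusted p = 0.131) and −0.51 on the other.

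Cnn1 encodes calponin 1, an actin-binding protein that inhibits the myosin ATPase and is among the most specific markers of differentiated smooth muscle. Its probe lies at chr9:21913058-21913117 (mm9, plus strand). The 2-month levels were 4.31, 5.04, 6.01 and 5.29. PBS arrays at 12 months read 4.97, 4.47, 4.48 and 4.23, and DT arrays read 4.04, 3.45, 3.79 and 3.29, all lower. Wild type arrays read 4.46 and 4.73 with PBS and 4.29 and 3.90 with DT. Cnn1 fell 1.86-fold with DT in ARF-DTR mice (log2 change −0.90, SE 0.29, adjusted p = 0.0363). The age difference, −0.62, was the largest of any member, but with an SE of 0.29 it did not pass (adjusted p = 0.26).

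Lmod1 encodes leiomodin 1, which nucleates actin filaments in smooth muscle, and its probe lies at chr1:137264581-137264640 (mm9, plus strand). It was read close to background: levels were −3.72, −3.29, −2.39 and −2.92 at 2 months. PBS arrays at 12 months read −3.47, −3.52, −3.60 and −3.91. DT arrays read −4.41, −4.34, −4.36 and −4.24, a narrow band below all PBS arrays. In wild type mice Lmod1 read −4.12 and −4.11 with PBS and −4.72 and −4.60 with DT, and 1 of these DT arrays was not well above background. Lmod1 fell 1.64-fold with DT in ARF-DTR mice (log2 change −0.71, SE 0.21, adjusted p = 0.0219). Near the background this size depends on how the background is taken: with normexp correction the difference was −0.10 (adjusted p = 0.594). With age the difference was −0.55 (SE 0.21, adjusted p = 0.149).

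Tagln encodes transgelin, also called SM22 alpha, an actin cross-linking protein and an early marker of the lineage, and its probe lies at chr9:45738097-45738156 (mm9, minus strand). It read 5.58, 6.0, 6.49 and 6.01 at 2 months. At 12 months it read 5.81, 5.66, 5.74 and 5.6 with PBS. With DT it read 5.15, 5.06, 5.23 and 5.04. Each DT array was well under the lowest PBS array, and the spread within either group was small. Wild type levels were 5.71 and 5.70 with PBS and 5.37 and 5.33 with DT, so that here too the toxin arrays lay lower. Tagln fell by 0.58 on the log2 scale with DT in ARF-DTR mice (SE 0.14, adjusted p = 0.00846), or 1.5-fold. Its age difference was −0.32 (SE 0.14, adjusted p = 0.218).

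Myh11 encodes the heavy chain of smooth muscle myosin, the motor of the thick filament and a gene hardly expressed outside this lineage, and its probe lies at chr16:14202190-14202249 (mm9, minus strand). Levels at 2 months were 1.25, 1.61, 2.49 and 1.85. With PBS at 12 months they were 1.49, 1.30, 1.31 and 1.02. With DT they were 0.81, 0.68, 0.53 and 0.5. The DT arrays were all below the PBS arrays, and the 2-month arrays were above or among them. Wild type arrays were 1.05 and 1.01 with PBS and 0.81 and 0.97 with DT, apart by little. Myh11 fell 1.57-fold with DT in ARF-DTR mice (log2 change −0.65, SE 0.20, adjusted p = 0.0279). The age difference was −0.52 (SE 0.20, adjusted p = 0.156).

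Myl9 encodes the regulatory light chain whose phosphorylation starts contraction, and its probe lies at chr2:156607301-156607360 (mm9, plus strand). Its levels were 5.91, 6.44, 6.66 and 6.31 at 2 months. With PBS they were 6.14, 5.90, 5.97 and 5.91. With DT they were 5.57, 6.08, 5.62 and 5.73, where replicate 2 reached into the PBS range. Wild type PBS arrays, 6.23 and 6.32, lay above all ARF-DTR PBS arrays, and the DT arrays, 5.63 and 6.31, were far apart. No difference of Myl9 passed for age (−0.35, SE 0.17, adjusted p = 0.279) or for DT in ARF-DTR mice (−0.23, SE 0.17, adjusted p = 0.321).

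Mylk encodes myosin light chain kinase, which adds that phosphate and is also made by endothelium and other non-muscle cells. It was read by 2 probes, at chr16:35001266-35001325 and chr16:34953958-34954017 (mm9, plus strand), the first and brighter of which stands for the gene. Its levels at 2 months were 1.47, 1.41, 1.59 and 1.42. They were 1.16, 1.18, 1.16 and 0.99 with PBS at 12 months and 0.77, 0.99, 0.81 and 0.91 with DT. Mylk thus went down in steps, with the 2-month arrays tight and above every PBS array, and PBS replicate 4 just above the highest DT array. Wild type levels were 1.18 and 1.01 with PBS and 0.86 and 0.55 with DT. Mylk was the only member that passed with age, a fall of 1.28-fold (log2 change −0.35, SE 0.08, adjusted p = 0.0231). It also fell 1.19-fold with DT in ARF-DTR mice (log2 change −0.25, SE 0.08, adjusted p = 0.0363). The second probe gave −0.07 for age (unadjusted p = 0.611) and −0.34 for DT (unadjusted p = 0.0187), so the age fall was seen on 1 of 2 probes. This second probe was dim, with a mean signal of 120 intensity units against 1833 for the used one, though well above background on 16 arrays. With the mean of both probes the age difference of Mylk was −0.21 (adjusted p = 0.13), and on the scale of the array median its DT difference was −0.07 (adjusted p = 0.575).

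Des encodes desmin, the intermediate filament that links dense bodies, shared with cardiac and skeletal muscle. Its probe maps to chr1:75363404-75363629 (mm9, plus strand), a span longer than the probe, so it crosses an intron. Levels were 1.18, 1.33, 2.16 and 1.59 at 2 months. They were 1.49, 1.26, 1.14 and 0.77 with PBS and 0.85, 0.90, 0.88 and 0.58 with DT, where PBS replicate 4 lay inside the DT range. Wild type arrays read 1.04 and 0.96 with PBS and 0.75 and 0.62 with DT. Neither the age difference of −0.39 (SE 0.19, adjusted p = 0.274) nor the DT difference of −0.37 in ARF-DTR mice (SE 0.19, adjusted p = 0.166) passed.

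With DT in ARF-DTR mice, then, 7 of 10 members fell: both smooth muscle actins, Cnn1, Lmod1, Tagln, Myh11 and Mylk. Of all genes tested, 13.5% passed as lower in that comparison. The arrays of the same 7 members did not overlap between PBS and DT, against 14.8% of all genes not overlapping with lower DT arrays. The median difference was −0.61 over the members, a 1.53-fold lower level, and 0.00 over all genes. Scaling on the median of each array shifted all genes up by a median of 0.18 in this comparison, and left 4 members past the threshold: Acta2, Tagln, Actg2 and Lmod1. Leaving out PBS replicate 1 left 2, PBS replicate 2, DT replicate 3 or DT replicate 4 each left 3, and PBS replicate 3 left 4. Acta2 and Tagln passed in all 18 alternatives run, and 10 of 10 members stayed below 0 in each of them wherever they were measured.

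Within slide 2, 10 of 10 members were lower in DT-treated ARF-DTR lungs than in wild type lungs with PBS, with a median of −0.46 against −0.00 over all genes. Of these, 0 passed the adjusted threshold, where 3.39% of genes passed as lower. At an unadjusted p under 0.05 there were 5, and the share of all genes at that level is not given. For 9 members the arrays did not overlap, against 17.8% of genes. The largest differences were −0.95 for Cnn1 (SE 0.36, adjusted p = 0.14), −0.73 for Actg2 (SE 0.36, adjusted p = 0.26) and −0.63 for Acta2 (SE 0.21, adjusted p = 0.0953). Tagln came nearest to the threshold at −0.59 (SE 0.17, adjusted p = 0.0626), and it passed with array weights, with only the groups compared, or with probes well above background on every array.

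In wild type mice, DT against PBS gave a difference below 0 for 10 of 10 members (9 on the scale of the array median, where Tpm2 was at 0.017), with a median of −0.38 against −0.02 over all genes. Here 0 members and 0.121% of genes passed as lower, and 1 member, Mylk, had an unadjusted p under 0.05 (−0.39, SE 0.12, adjusted p = 0.174). The arrays were apart for 8 members, against 24.7% of genes with 2 arrays in each group. The test of whether DT acted differently in ARF-DTR and wild type mice passed for 0 members, with 0 at an unadjusted p under 0.05, against 2.1% of genes in either direction. Its largest member value was −0.51 for Myh11 and its median −0.22, so a larger fall in the transgenic mice was not shown for any member. DT-treated ARF-DTR arrays and wild type DT arrays, on the same slide, gave a median member difference of −0.13 with 0 members past the threshold, where 0.888% of genes passed in either direction, and 0 at an unadjusted p under 0.05. In that comparison the arrays were apart for 2 members: Tagln was lower in ARF-DTR mice (−0.23) and Lmod1 was higher (0.32), where 10.2% and 14.2% of genes did so. With PBS alone, ARF-DTR minus wild type had a member median of 0.11, with 0 of 10 past the threshold and 0 at an unadjusted p under 0.05 while 23.6% of genes passed across the slides. There the arrays were apart for Myl9, lower in ARF-DTR mice, and Lmod1, higher, as for 26.9% and 21.7% of genes.

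**Figure D2:**
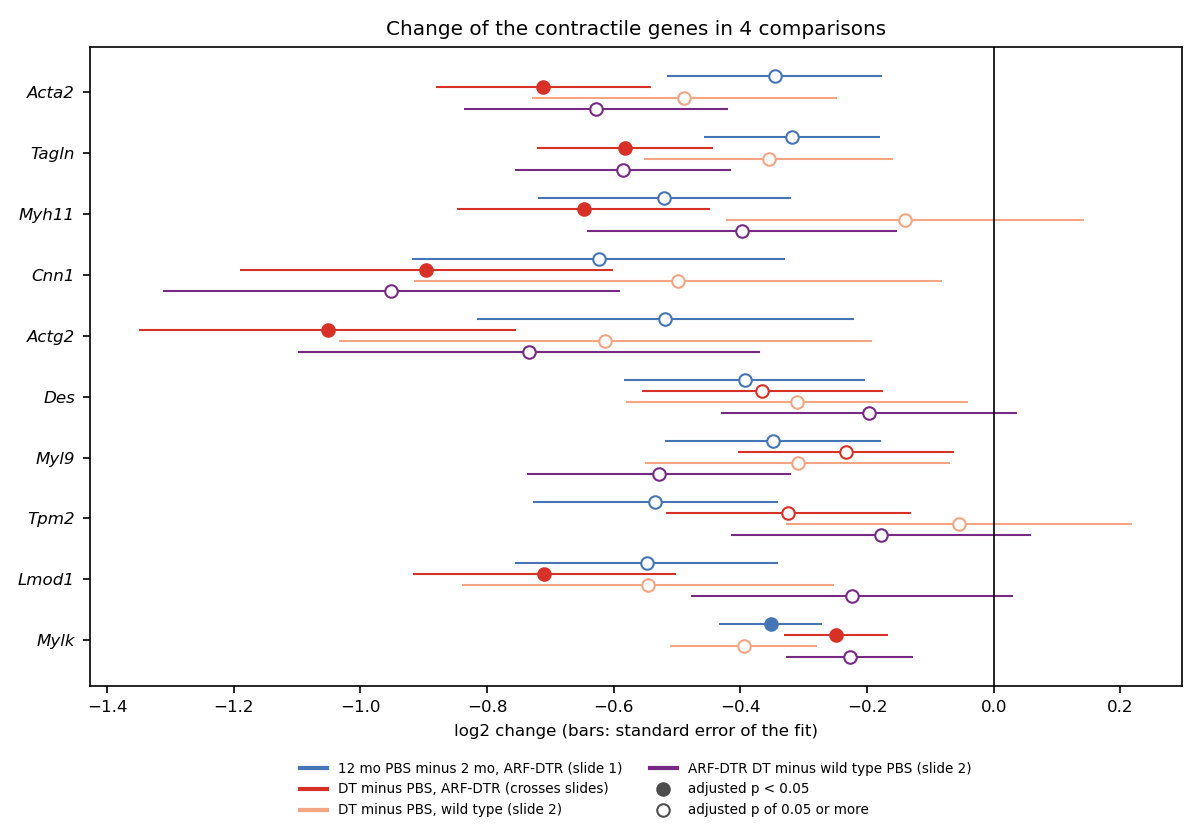
Log2 change of each contractile gene (horizontal axis; bars are the standard error of the fit) for age in ARF-DTR mice, DT in ARF-DTR mice, DT in wild type mice, and ARF-DTR with DT against wild type with PBS; filled points passed an adjusted p of 0.05. All 40 points lie below 0 (Tpm2 in wild type mice moves to 0.017 on the scale of the array median), and 8 are filled: 7 for DT in ARF-DTR mice and Mylk for age.

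With age, 12-month PBS against 2-month ARF-DTR lungs, 10 of 10 members were lower at 12 months by 0.32 to 0.62 log2 units, and 1, Mylk, passed, where 3.41% of genes passed as lower. The median was −0.46 over the members and −0.03 over all genes. An unadjusted p under 0.05 was reached by 5 members, and the share of all genes at that level is not given. Only Mylk had arrays that did not overlap, against 7.97% of genes. Mylk no longer passed without 2-month replicate 1, 2-month replicate 3 or PBS replicate 4, with adjusted p-values of 0.0537, 0.0505 and 0.0721. Without 2-month replicate 1, 3 other members passed, and without replicates 1 and 3 together 0 did. The size also moved with these arrays: the member median was −0.27 without 2-month replicate 3, where Acta2 was at −0.15, and −0.59 without replicate 1, and all 10 members stayed below 0 in both.

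DT-treated ARF-DTR lungs at 12 months set against untreated lungs at 2 months had the widest gap. Here 10 of 10 members passed as lower, against 16% of all genes, and 9 did not overlap, against 14.7%. The falls were 2.97-fold for Actg2, 2.87-fold for Cnn1, 2.39-fold for Lmod1, 2.25-fold for Myh11 and 2.08-fold for Acta2, and between 1.5-fold (Myl9, adjusted p = 0.0203) and 1.87-fold (Tagln) for the rest. For Lmod1, near the background, the difference was −1.26 here and −0.41 with normexp correction (adjusted p = 0.0304). This comparison shares its arrays with those of age and DT and crosses slides as the latter does.

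The 2-month group was the most uneven. Replicate 3 was highest for 10 of 10 members and replicate 1 lowest for 9, and the SD over the 4 arrays had a median of 0.44 across members, from 0.09 for Mylk to 0.71 for Actg2. Among PBS arrays replicate 1 was highest for 9 and replicate 4 lowest for 9, with a median SD of 0.20, and among DT arrays replicate 4 was lowest for 7, with a median SD of 0.15. The mean of the 10 members was 2.60, 3.00, 3.69 and 3.15 on the 2-month arrays, 2.88, 2.69, 2.67 and 2.40 with PBS, and 2.18, 2.14, 2.09 and 1.93 with DT. In wild type mice it was 2.55 and 2.55 with PBS and 2.17 and 2.18 with DT. Most contractile genes thus ranked the arrays of a group alike.

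After each group's mean was taken out, 44 of the 45 pairs of members had a Pearson r above 0 over the 16 arrays, with a median of 0.85 and 33 pairs above 0.5. Acta2 and Myh11 were closest at 0.98, and Myl9 and Mylk lowest at −0.01. Against the mean of the other 9 members, r was 0.54 for Myl9 and 0.30 for Mylk, and between 0.89 and 0.97 for the rest. The values were lower without 2-month replicates 1 and 3, the arrays farthest from the middle: over the other 14 arrays 40 pairs were above 0, the median r was 0.59 and that of Acta2 with Myh11 0.91. These values describe arrays that share a slide, a scale and an RNA sample for every gene.

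**Figure D3:**
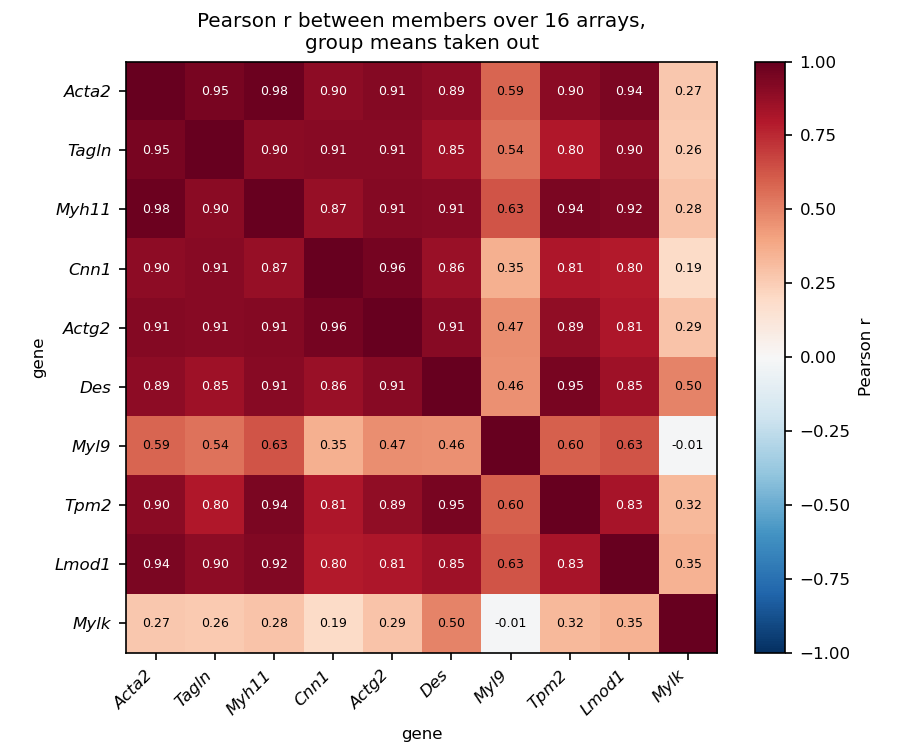
Pearson r between each pair of contractile genes over 16 arrays after the group means were taken out; both axes list the 10 genes and the colour runs from −1 to 1. Myl9 and Mylk stand out as pale rows, with −0.01 between them, while Acta2 and Myh11 reach 0.98.

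The genes outside the 10 whose pattern was most like their mean, by the same within-group r over 16 arrays, were Acta1 (skeletal alpha actin, 0.97), Synpo2 (synaptopodin 2, an actin-binding protein of muscle, 0.96) and Kcnma1 (the pore of the large calcium-activated potassium channel, 0.94). Lelp1, Lhb, Sart1 and Arhgef15 followed at 0.89 each. These values include 2-month replicates 1 and 3. By Spearman rank correlation they were lower: 0.85 for Acta1, 0.79 for Synpo2, 0.83 for Kcnma1, and from 0.83 (Lelp1) to 0.68 (Arhgef15) for the others. Kcnma1 was read low, between −4.40 and −2.43. Without taking group means out, r was highest for Synpo2 (0.99), Twist2 (0.96), Acta1 (0.95), Pdlim3 (0.95), Kif24 (0.94), Tnnt3 (0.94), Fbxl22 (0.92) and Mrvi1 (0.92). Synpo2 read 0.81, 1.27, 2.19 and 1.51 at 2 months, 1.26, 0.83, 0.91 and 0.76 with PBS, and 0.25, 0.06, 0.23 and −0.12 with DT. The 2-month replicates of Synpo2 kept the order seen in the members, with replicate 1 lowest and replicate 3 highest. Synpo2 fell with DT in ARF-DTR mice by 0.84 on the log2 scale (SE 0.22, adjusted p = 0.0133), with −0.50 for the mean of its probes (adjusted p = 0.0828) and −0.67 against wild type PBS within slide 2 (adjusted p = 0.163).

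The lists of other genes carry the same limit as the members: their DT changes in ARF-DTR mice cross slides, and the value against wild type PBS is the one within slide 2. Counts of genes that passed in each list stand beside the shares over all genes. For counts at an unadjusted p under 0.05 that share is not given. With DT in ARF-DTR mice 13.5% of all genes passed as lower and 15.9% as higher. With age the shares were 3.41% lower and 2.73% higher. Against wild type PBS within slide 2 they were 3.39% lower and 2.12% higher. Filament and dense body partners of the members form a list of 20 genes, all measured. With age, 6 fell and 0 rose: Mustn1 by 0.54, Smtn (smoothelin, a marker of contractile smooth muscle) by 0.5, Lpp by 0.42 and Pgm5 by 0.37, with 2 others, and the list's median was −0.21. Smtn read 2.82, 2.84, 3.11 and 3.07 at 2 months against 2.51, 2.61, 2.43 and 2.29 with PBS (adjusted p = 0.00469). With DT in ARF-DTR mice 4 fell, Synpo2, Pdlim3 by 0.47, Synm (synemin, a partner of desmin) by 0.36 and 1 other, and Myl6, the essential light chain made in most cells, rose by 0.40, with a median of −0.11. The rise of Myl6 was not seen within slide 2, where its difference from wild type PBS was −0.10 (adjusted p = 0.472), and with quantile normalization it was 0.04 (adjusted p = 0.549). In wild type mice DT gave −0.13 for Myl6, and the test between the genotypes, which crosses slides, passed (0.53, adjusted p = 0.0311). Pdlim3 passed in 13 of 18 alternatives and was at −0.43 within slide 2 (adjusted p = 0.151). Synm was also lower in DT-treated ARF-DTR than in wild type PBS lungs (−0.48, adjusted p = 0.00991), as 1 of 20.

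Of 19 genes of myosin phosphorylation and calcium handling, 6 fell with age and 0 rose. They were Cacna1c (the L-type calcium channel, −0.68), Gucy1b1 (−0.59) and Gucy1a1 (−0.50), the subunits of the nitric oxide receptor that relaxes smooth muscle, Trpc6 (−0.52), a calcium-permeable channel, and 2 others. Cacna1c read 1.68, 1.88, 1.5 and 1.72 at 2 months and between 1.0 and 1.02 on the 4 PBS arrays (adjusted p = 0.000994), but with the mean of its probes the age difference of Cacna1c was −0.19 (adjusted p = 0.768). With DT in ARF-DTR mice Kcnmb1, the smooth muscle subunit of the calcium-activated potassium channel, fell by 0.93 and Gucy1a1 by 0.31, while Ppp1r12a, the myosin phosphatase targeting subunit, rose by 0.32. Within slide 2 these differences were −0.87 for Kcnmb1 (adjusted p = 0.0927), −0.27 for Gucy1a1 (adjusted p = 0.0708) and 0.04 for Ppp1r12a (adjusted p = 0.854). Of the 19, 2 passed there as lower in DT-treated ARF-DTR than in wild type PBS lungs, Ppp1r14a and Gucy1b1, and 0 as higher. The list's median was −0.14 with age and −0.17 with DT.

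Among 16 receptors for contraction and relaxation, 7 fell and 1 rose with DT in ARF-DTR mice. Htr2b, a serotonin receptor, fell by 1.09, Adra1a (an adrenergic receptor) by 0.83, Chrm3 (the muscarinic receptor of airway muscle) by 0.60 and Oxtr, the oxytocin receptor, by 0.51, with 3 others, and the gene that rose was Cysltr1, a leukotriene receptor, by 0.45. Htr2b had risen with age by 0.95 (adjusted p = 0.000127): its levels were −1.24, −1.20, −1.19 and −1.22 at 2 months, −0.31, −0.50, −0.17 and −0.06 with PBS and −1.38, −1.33, −1.37 and −1.32 with DT. Htr2b was thus high in the PBS group, where 0 of 10 members were higher than at 2 months. Tbxa2r, the thromboxane receptor, fell with age by 0.69. Against wild type PBS, Htr2b (−0.73) and Htr2a (−1.0) were lower in DT-treated ARF-DTR lungs. Across the slides, ARF-DTR lungs with PBS already read lower than wild type ones for Htr2a (−1.09), and higher for Htr2b. Htr2a did not pass with DT in ARF-DTR mice. The other named receptors did not pass within slide 2: Chrm3 was at −0.65 (adjusted p = 0.158), Cysltr1 at 0.43 (adjusted p = 0.109), Adra1a at −0.36 (adjusted p = 0.285) and Oxtr at −0.11 (adjusted p = 0.729). The DT fall of Chrm3 passed in only 5 of 18 alternatives, and with normexp correction the difference was −0.36 for Adra1a (adjusted p = 0.00594), −0.20 for Chrm3 and −0.11 for Oxtr (adjusted p = 0.377).

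Of 11 transcription regulators, Myocd, the myocardin gene, fell with DT in ARF-DTR mice by 0.92 (SE 0.29, adjusted p = 0.032). It read −2.76, −2.65, −2.98 and −1.53 with PBS and −3.54, −3.36, −3.22 and −3.49 with DT, and PBS replicate 4 stood above the other PBS arrays, unlike its low levels for the members. Without that array the difference of Myocd was −0.61 (adjusted p = 0.0667), with normexp correction it was −0.48 (adjusted p = 0.0789), and it passed in 11 of 18 alternatives. Within slide 2 Myocd was at −0.36 (adjusted p = 0.604). Klf4, a repressor of contractile genes, rose with age by 0.46 and fell with DT by 0.40, in 10 of 19 and 13 of 18 alternatives. Within slide 2 Klf4 was higher in DT-treated ARF-DTR than in wild type PBS lungs (0.93, adjusted p = 0.00685). ARF-DTR lungs with PBS already read higher for Klf4 than wild type ones across the slides (1.32). DT gave 0.71 for Klf4 in wild type mice (adjusted p = 0.111), and the test between the genotypes, which crosses slides, passed (−1.10, adjusted p = 0.0192). Elk1, a cofactor that competes with myocardin, rose with DT by 0.42 on its brightest probe, but its difference was −0.02 with the mean of its probes, 0.04 with quantile normalization and 0.06 within slide 2 (adjusted p = 0.731). The list's median was −0.05 with age and 0.00 with DT.

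Markers of other cells moved with some of these results. The mean level of 11 cardiac markers was −0.58, 2.54, 3.79 and 3.70 on the 2-month arrays, so replicate 1 was the lowest for cardiac and contractile genes alike and replicate 3 the highest. Cardiac markers read 3.59, 2.94, 2.55 and 3.59 with PBS and 1.98, 1.72, 2.57 and 1.98 with DT. Their summed linear level ranged from 33.3 to 327 at 2 months, 150 to 285 with PBS, 84.3 to 132 with DT, 86.5 to 114 in wild type PBS and 122 to 174 in wild type DT. With DT in ARF-DTR mice 1 of 11, Actc1, fell (−1.25, adjusted p = 0.00891), and the list's median was −1.21. Within slide 2 Actc1 was at −0.42 (adjusted p = 0.552) and the cardiac median at 0.06. With age 0 of 11 passed in limma's test, with 0 at an unadjusted p under 0.05, and 11 of 11 were above 0, with a median of 0.88 and Actc1 lowest at 0.02. Without 2-month replicate 1, an alternative added after seeing the data, 2 of 11 were above 0 with a median of −0.13, so the direction of the cardiac list with age rests on that array. In wild type mice the cardiac median with DT was 0.63 where the members' was −0.38. The part of cardiac tissue in the differences of the members was not tested.

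Of 9 skeletal muscle markers, 5 were measured, and Myh1, Myh2, Myh4 and Mylpf were well above background on at most a few arrays. Acta1 fell with DT by 1.40 (adjusted p = 0.000796), 1 of the 5, and was at −0.63 within slide 2 (adjusted p = 0.177), and the summed level of the 5 was 3.43 to 9.50 at 2 months, 3.69 to 5.37 with PBS, 2.39 to 3.07 with DT, 3.03 to 3.17 in wild type PBS and 2.90 to 2.96 in wild type DT. Pericyte markers, for cells that share several contractile genes, fell for 4 of 9 with age, among them Pdgfrb (−0.66), and summed to 34.0 to 38.9 at 2 months against 26.7 to 27.9 with PBS and 26.7 to 29.1 with DT. The age fall of Ndufa4l2, another of the 4, passed in 8 of 19 alternatives. For DT in ARF-DTR mice 1 pericyte marker of 9 fell (Pdgfrb, −0.39) and 1 rose (Higd1b, 0.35), where 13.5% and 15.9% of all genes did. Within slide 2 the differences were −0.13 for Pdgfrb (adjusted p = 0.625) and −0.16 for Higd1b (adjusted p = 0.447), so the rise was not seen there, and ARF-DTR lungs with PBS already read lower for Higd1b than wild type ones across the slides (−0.51, adjusted p = 0.00808). Rgs5 was the 1 pericyte marker of 9 that passed within slide 2, higher in DT-treated ARF-DTR than in wild type PBS lungs (1.62). With age Rgs5 was at 0.92 and did not pass, and the other 8 pericyte markers were below 0. Fibroblast and myofibroblast markers fell for 6 of 11 with age, led by Col3a1 (−1.13) and Col1a1 (−1.09), and 0 of 11 passed with DT in limma's test, with 5 at an unadjusted p under 0.05. They summed to 162 to 194 at 2 months, 109 to 139 with PBS and 115 to 162 with DT.

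Airway epithelium markers followed the members among the 2-month arrays, with means of 4.0, 4.53, 5.30 and 4.55, lowest in replicate 1 and highest in replicate 3. With DT 1 of 6 rose (Scgb1a1, 0.37) and 1 fell (Scgb3a2, −0.65), and their sum was 702 to 801 with PBS and 810 to 986 with DT. Within slide 2 Scgb1a1 was at −0.04 (adjusted p = 0.868) and Scgb3a2 at −0.66 (adjusted p = 0.141), and with quantile normalization the rise of Scgb1a1 was 0.01 (adjusted p = 0.823). Of the 6 airway markers, 1, Ccdc153, passed as lower within slide 2. ARF-DTR lungs with PBS already read lower for Ccdc153 than wild type ones across the slides. Alveolar epithelium markers rose for 6 of 8 with DT in ARF-DTR mice, led by Sftpa1 (0.65) and Lamp3 (0.62), where 15.9% of all genes passed as higher, and their sum was 1028 to 1144 with PBS and 1396 to 1597 with DT. Within slide 2, against wild type PBS, 0 of these 8 passed in limma's test, with 3 at an unadjusted p under 0.05 and a median of 0.15. With quantile normalization the difference across slides was 0.28 for Sftpa1 (adjusted p = 0.0204) and 0.33 for Lamp3 (adjusted p = 0.0891). Endothelial markers fell for 3 of 7 with age and for 1 (Kdr, −0.62) with DT, which also passed within slide 2 (−0.46, adjusted p = 0.0407). The age falls of Cdh5, Pecam1 and Kdr passed in 6, 14 and 15 of 19 alternatives. Mesothelial markers rose for 3 of 4 with age, among them Wt1 (1.81), and 1 (Msln, 0.89) with DT, at 0.47 within slide 2 (adjusted p = 0.438) and 0.58 without DT replicate 3 (adjusted p = 0.0552). The age rise of Msln passed in 10 of 19 alternatives. How much of each cell type a sample held, and its part in the results, was not tested.

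**Figure D4:**
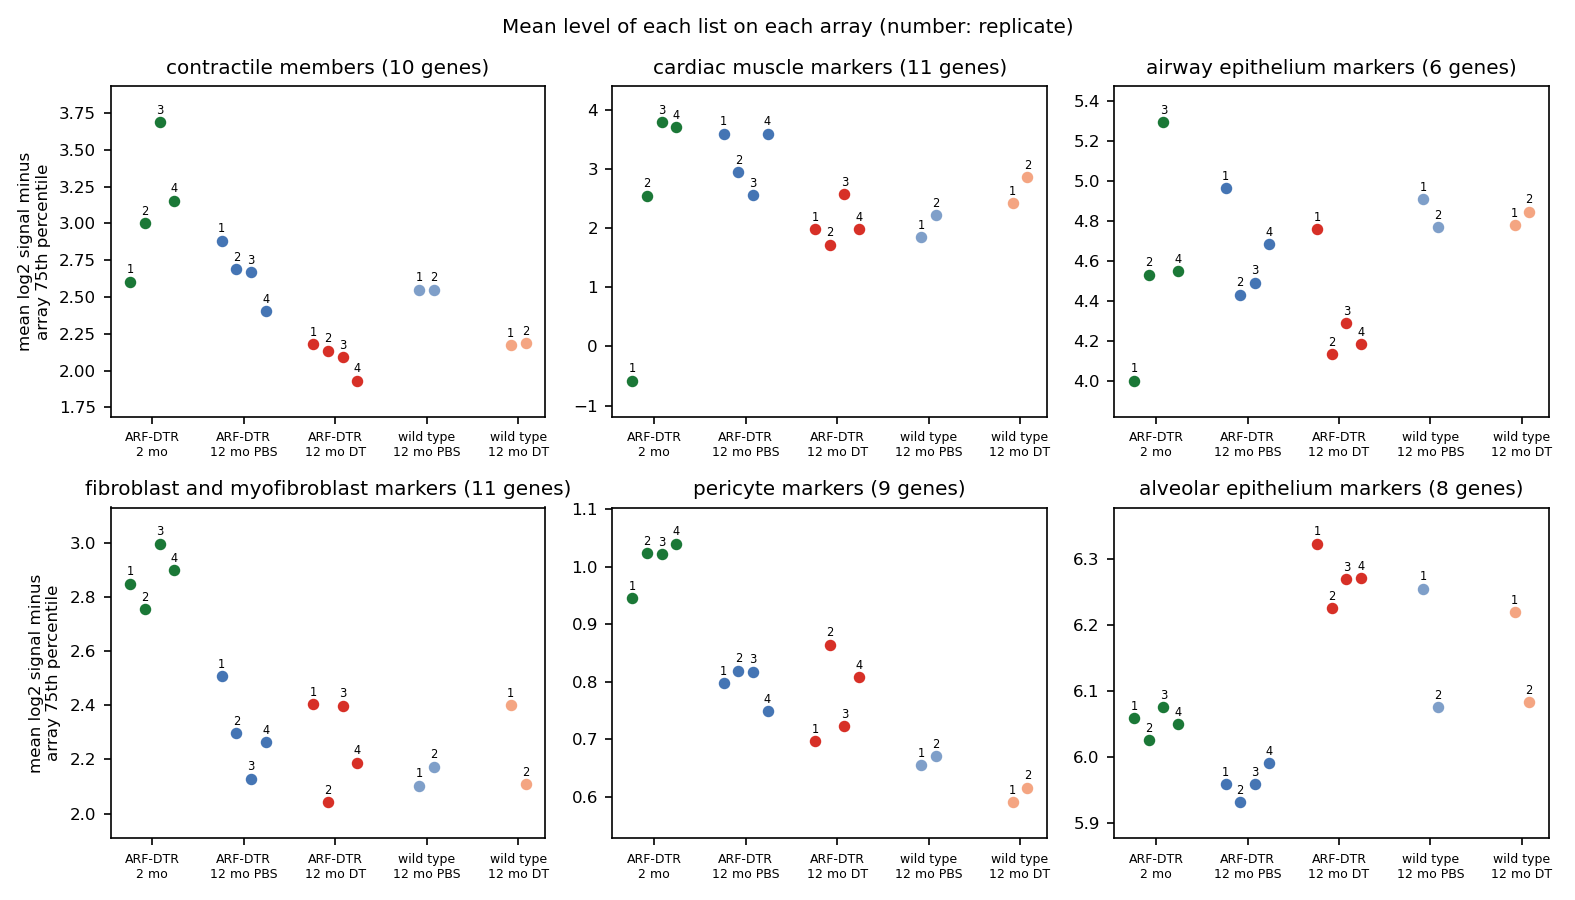
Mean level (log2 signal minus the 75th percentile of the array, vertical axis, scaled per panel) of the contractile genes and 5 marker lists on each array, by group; numbers give the replicate. Among the 2-month arrays replicate 1 is lowest and replicate 3 highest for contractile, cardiac and airway lists, while the alveolar markers vary little.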

How the data were processed

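Per the labels, total RNA of homogenised lung was labelled with Cy3. Images were quantified by Agilent Feature Extraction (10.10.1.1, per the submitters' processing notes), and per the file headers probes were placed on mm9. The deposited array files hold 1 channel of intensity values. The authors' deposited value table holds log2 values that matched the log2 signal minus each array's 75th percentile (lowest r 0.999998). Groups came from the titles; the free descriptions of 3 wild type samples disagree about DT. The labels do not say that samples were separate mice, so p-values measure the spread between samples, which may be technical.

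Control and outlier spots were left out (105 to 171 per array), 0 were saturated, and spots of a probe were averaged. Processed signals were scaled as in that table. Probes well above background on at least 4 of 16 arrays were kept (37037), and the brightest stood for each of 25574 genes. Through RefSeq tables, names came from accessions (27656 probes), symbols (3401) or synonyms (321), and otherwise from the file (24303). A single limma fit (3.58.1, R 4.3.3, jsonlite 2.0.0 and version 1.17.8 of data.table) held all arrays, with 8 contrasts and Benjamini-Hochberg adjustment over all genes; called means an adjusted p under 0.05, two-sided. The fit was tested on simulated data with 200 changed genes.

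Members and the 13 other lists (136 genes) were chosen with earlier results of these data known. Named were all members, up to 4 called genes per list by size, and the 8 most alike genes by each measure, of which 1 is not reported here; Cysltr1 was named after its values were seen. Signal over background and the number of arrays limit precision. Alternatives tried were the scaling, background correction, probe filter, probe summary, weights, replicate block, groups fitted and each array left out.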

Additional observations from a re-analysis of the deposited data

Results flagged for a closer look

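In 30 groups of 4 arrays, 10 members in each of the 3 ARF-DTR groups, 3 had an array far from the others by Dixon's criterion, where chance gives about 1 in 20. Acta2 read 5.14 in PBS replicate 4, against 5.41 in the nearest PBS array. Mylk read 0.99 in the same array, against 1.16. Des read 0.58 in DT replicate 4, against 0.85 in the nearest DT array. Each of these arrays was the lowest of its group for most members: PBS replicate 4 for 9 and DT replicate 4 for 7.

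Of the 136 genes in the other lists, 4 of them not measured, 3 passed limma's interaction test between ARF-DTR and wild type mice. They were Htr2b at −0.77, Klf4 at −1.10 and Myl6 at 0.53. Over all genes 2.1% passed, and the count in the lists is near that share. The ARF-DTR side of this test crosses slides and the wild type side does not, so slide and genotype cannot be told apart.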

How the results depend on the processing

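Against 7 members past the threshold with DT in ARF-DTR mice, scaling on the array median gave 4 and leaving out 1 array gave 2 to 7. Against 1 with age, the mean of kept probes gave 0, median scaling 2, array weights 2, leaving out 1 array 0 to 3, and leaving out 2-month replicates 1 and 3 together, chosen after seeing the data, 0. Against 0 for DT-treated ARF-DTR and wild type PBS, requiring every array above background gave 1 of 9 measured, only the groups compared 2, and array weights 3. Against 2-month lungs 9 to 10 passed, and the other comparisons kept 0 throughout. With DT in wild type mice, Tpm2 turned to 0.017 under median scaling, and leaving out 1 DT array gave −0.16 to 0.049 for Tpm2 and −0.65 to 0.031 for Myl9, above 0 without replicate 1. Elk1 turned to −0.024 with the mean of its probes for DT in ARF-DTR mice. The cause was not tested.

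Over all genes, 7501 passed for DT in ARF-DTR mice, 3445 of them lower, against 10424 with 1751 lower under median scaling and 9689 with 2522 lower under normexp. For age 1570 passed, against 960 with only the groups compared, 920 to 1776 leaving out 1 array and 632 without 2-month replicates 1 and 3. Median scaling took the median of all genes for age from −0.03 to −0.12.

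For samples with the same replicate number, r between their deviations ran from −0.20 to 0.33 over 26 pairs, with 7 above 0.1. Pairs with unlike numbers were not set beside them, so whether the numbers mark a pairing was not tested. With the replicate block 6 members passed with DT in ARF-DTR mice, Mylk not (−0.25, adjusted p = 0.056), 1 with age and 10 against 2-month lungs. No fit with slide as a block was possible, as no group spanned the slides. Lmod1 alone lay close to background, which limits its fold.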
